A study of Rattus norvegicus with 6 samples.

Results

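The hypoxia response genes are 10 rat genes chosen by name: the hypoxia-inducible factor (HIF) subunit genes Hif1a and Epas1, the oxygen sensor genes Egln1 and Egln3, and the HIF targets Vegfa, Adm, Slc2a1, Pfkfb3, Pdk1 and Bnip3. Of these, 9 had at least 1 array probe matched to their symbol by accession, and all 9 were bright enough to be tested, among 32663 gene entries in all. No probe was matched to Egln1, which is not analysed here. The tissue was renal cortex, from Sprague-Dawley (Crl:CD(SD)) males bought at 5 weeks of age. The corn oil group (3 animals) received corn oil for 4 weeks, and the anthraquinone group (3 animals) received anthraquinone, a tricyclic quinone, at 1000 mg/kg/day for 4 weeks. Each animal gave 1 single-colour Agilent array. The labels give no route of dosing and no measure of tissue oxygen.

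HIF is a transcription factor made of an oxygen-labile alpha subunit, encoded by Hif1a or Epas1, and a stable partner encoded by Arnt. In the presence of oxygen, prolyl hydroxylases of the Egln family mark the alpha subunit, which the von Hippel-Lindau protein then targets for destruction, so the main control is on the protein and an array reads only the messenger RNA. When oxygen falls, HIF turns on genes for blood vessel growth, glucose uptake, glycolysis and mitophagy, together with Egln1 and Egln3 themselves, which close a feedback loop. The kidney works at low oxygen in its deeper zones, and its cortical fibroblasts are the source of erythropoietin.

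None of the hypoxia response genes passed the test, and they did not move together. Egln3 lay lower with anthraquinone, at 0.641 times the corn oil level, and Bnip3 lay higher, at 1.41 times, with no overlap between the groups for either gene. Hif1a lay higher by a smaller amount, at 1.18 times. The remaining 6 genes, Epas1, Vegfa, Adm, Slc2a1, Pfkfb3 and Pdk1, had values of both groups that overlapped on their brightest probes. Past a limma adjusted p of 0.05, 0 of the 9 genes were called, where 0.0276% of all entries were called. At an unadjusted p under 0.05 there were 3, 2 higher and 1 lower, against 17.1% of all entries (9.47% higher and 7.65% lower). The groups of 3 genes did not overlap, 2 higher and 1 lower, against 25.2% of all entries (15.0% higher and 10.2% lower). Both counts are 33.3% of the 9 genes, above the shares of all entries, but 1 gene more or less moves a share of 9 widely and nothing is read from it. The median difference over the 9 was 0.12 on the log2 scale, with 7 above 0, beside 0.01 over all entries, of which 51.6% were above 0.

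All levels below are log2 intensities of 1 probe relative to the 75th percentile of its array, so 0 means the brightness of that percentile, and a difference of 1 is a doubling. Levels of different genes are not compared, since each probe has its own brightness. Differences are anthraquinone minus corn oil. Values of a group are given in the order of replicates 1, 2 and 3, which are separate animals. P-values rest on the spread among these 6 animals, whose small number limits what can be resolved. Between 68.7 and 70.7% of probes were well above background on corn oil arrays and between 64.2 and 66.1% on anthraquinone arrays, so the groups also differed in overall detection, and its part in any result was not tested. Only corn oil replicate 1 was on a separate slide with another scan day. The tissue label was checked against proximal tubule markers, of which 7 of 7 were measured, with a summed level of 1246 to 1415 times the 75th percentile in corn oil and 1272 to 1489 times in anthraquinone. Medullary markers summed to 8.21 to 9.78 and 7.46 to 9.44 times that percentile. Thick ascending limb markers summed to 499 to 614 and 403 to 599, and collecting duct markers to 129 to 155 and 114 to 141. Sums of different lists rest on different probes, so they show which markers were measured and not how much of each tissue was present. In whole tissue, fewer cells of a type and less RNA per cell cannot be told apart.

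The promoter windows of the 3 genes whose groups did not overlap are shown because they differ in whether they hold the core letters of the hypoxia response element, ACGTG or GCGTG. They come from RefSeq on the GRCr8 assembly and run from 250 bases before to 50 bases after the annotated gene start, 5′ to 3′ on the strand of the gene. Capitals mark each match on either strand, where a reverse match reads CACGT or CACGC. The palindrome CACGTG counts as a match on both strands. Bnip3 is at chr1:203154913-203155212 on the minus strand, Egln3 at chr6:77410966-77411265 on the minus strand, and Hif1a at chr6:98359648-98359947 on the plus strand.
Bnip3: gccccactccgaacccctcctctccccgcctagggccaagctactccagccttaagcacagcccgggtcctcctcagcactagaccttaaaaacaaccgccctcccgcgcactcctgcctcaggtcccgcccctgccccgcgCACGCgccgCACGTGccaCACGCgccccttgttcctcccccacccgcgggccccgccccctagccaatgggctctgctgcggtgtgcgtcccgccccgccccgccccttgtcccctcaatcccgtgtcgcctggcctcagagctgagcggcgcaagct
Egln3: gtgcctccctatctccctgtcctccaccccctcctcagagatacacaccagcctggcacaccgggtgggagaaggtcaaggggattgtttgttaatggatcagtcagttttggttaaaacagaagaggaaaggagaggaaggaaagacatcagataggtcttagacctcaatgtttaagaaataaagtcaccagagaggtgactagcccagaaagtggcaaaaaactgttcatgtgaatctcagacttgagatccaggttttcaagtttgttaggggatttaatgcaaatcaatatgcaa
Hif1a: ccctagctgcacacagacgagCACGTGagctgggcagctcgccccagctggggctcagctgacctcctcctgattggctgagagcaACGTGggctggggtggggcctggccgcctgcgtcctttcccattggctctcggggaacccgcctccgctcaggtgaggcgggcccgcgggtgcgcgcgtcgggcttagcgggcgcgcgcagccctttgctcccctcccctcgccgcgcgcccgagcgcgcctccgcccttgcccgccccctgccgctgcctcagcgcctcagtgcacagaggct
The Bnip3 window holds 4 matches, among them a CACGTG whose first match begins 99 bases before the start. The Hif1a window holds 3, the nearest 164 bases before the start. The Egln3 window holds 0, which says only that these letters are not in this window. Of the 10 genes, 6 have a match (Slc2a1, Egln1, Bnip3, Pdk1, Pfkfb3 and Hif1a) and 4 have none (Vegfa, Egln3, Adm and Epas1), where 41.6% of 33469 rat promoter windows of the same length hold ACGTG or GCGTG. Among those windows ACGTG is in 19.3%, GCGTG in 29.7% and the palindrome in 6.42%. A match is a description of letters and not of binding. Among measured genes with a match, the differences were 0.49 (Bnip3), 0.24 (Hif1a), 0.12 (Pfkfb3), 0.06 (Pdk1) and -0.05 ± 0.14 (SE, Slc2a1). Among those without, they were 0.15 (Adm), 0.14 (Vegfa), 0.09 (Epas1) and -0.64 (Egln3). Whether a match goes with direction was not tested.

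Hif1a, the oxygen-labile subunit present in most cell types, was read by 3 probes. On the brightest, A_43_P12423, the levels were 2.63, 2.47 and 2.49 with corn oil against 2.70, 2.82 and 2.80 with anthraquinone. Every anthraquinone animal lay above every corn oil animal, with the closest pair being anthraquinone replicate 1 and corn oil replicate 1. The difference was 0.24 ± 0.08 (SE, n = 3 per group, 95% interval 0.04 to 0.44, limma adjusted p = 0.236). Probe A_44_P397495 gave 0.20 ± 0.07, also without overlap. The dimmest probe, A_64_P081874, gave 0.11 ± 0.16, with groups that overlapped.

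Epas1 encodes the HIF alpha subunit typical of endothelium and of renal interstitial cells. Its levels were -0.12, 0.01 and -0.15 with corn oil against -0.06, -0.01 and 0.09 with anthraquinone. The groups overlapped, since corn oil replicate 2 lay above anthraquinone replicates 1 and 2. The difference was 0.09 ± 0.08 (SE, n = 3 per group, 95% interval -0.11 to 0.29, limma adjusted p = 0.607), and lay between 0.05 and 0.14 over the settings tried.

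Egln3 encodes the prolyl hydroxylase whose messenger RNA is itself a HIF target, and it had the largest difference among the hypoxia response genes. Its only probe, A_44_P203549, read -1.21, -1.24 and -1.16 with corn oil, a tight group. With anthraquinone it read -1.66, -1.95 and -1.91. All anthraquinone animals lay below all corn oil animals, with replicate 1 the closest to them. The means were -1.20 ± 0.04 and -1.84 ± 0.16 (SD, n = 3 per group), and the difference was -0.64 ± 0.10 (SE, 95% interval -0.88 to -0.40, limma adjusted p = 0.128). Over 18 settings, which change the scaling, the filter, the probes, the variance model, the blocks or leave out an array, the difference lay between -0.73 and -0.48 and was called in 1 of them. That setting has no filter on dim probes and gave an adjusted p of 0.0199, but it also called 6611 entries, of which 5805 stood out from background on 0 of the 6 arrays. Within the slide that held the other 5 arrays, Egln3 differed by -0.64 ± 0.12 (SE, limma adjusted p = 0.305).

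**Figure D1:**
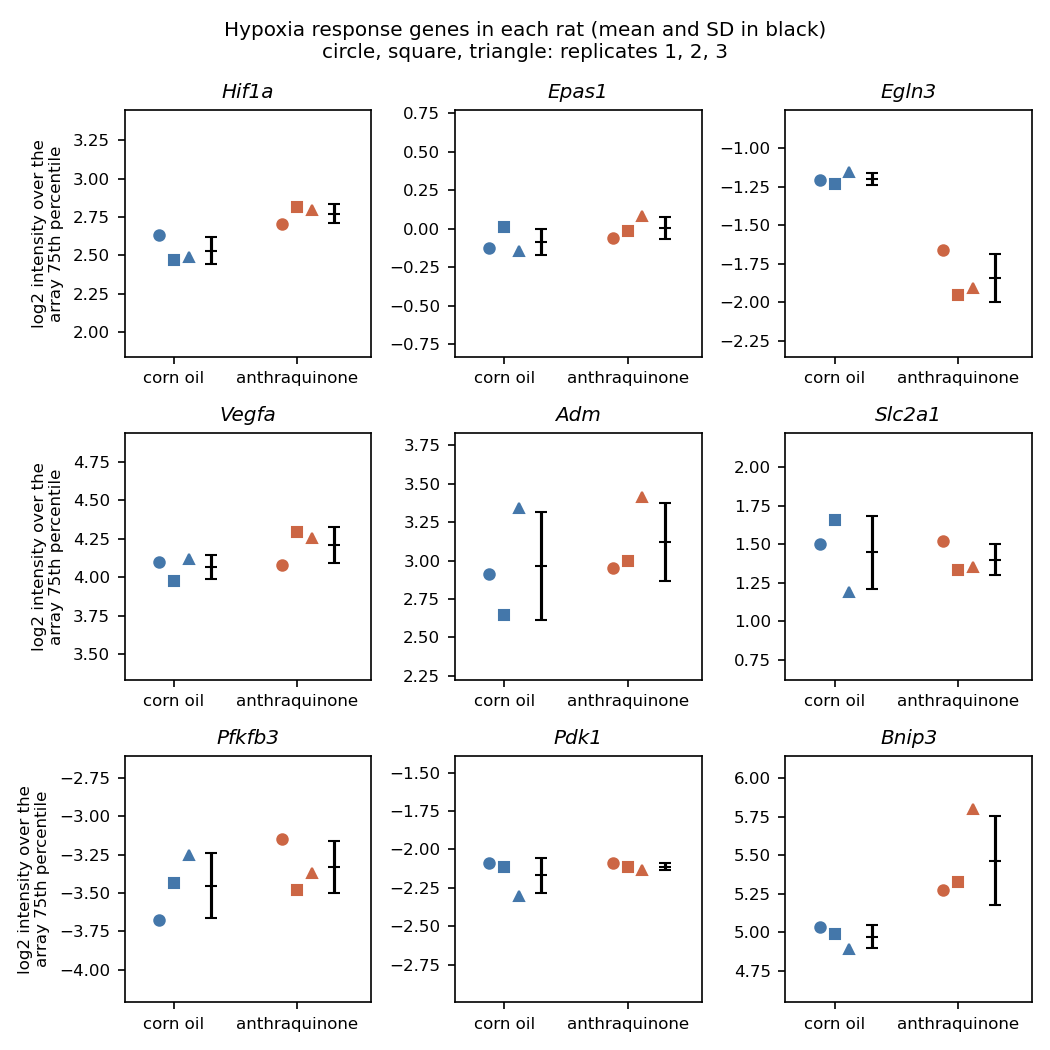
Level of each measured hypoxia response gene on its brightest probe, as log2 intensity over the 75th percentile of the array, in each corn oil (blue) and anthraquinone (orange) rat, with the mean and SD of each group (n = 3) in black and the same axis span in every panel. Egln3 separates downward (-1.24 to -1.16 against -1.95 to -1.66), Bnip3 and Hif1a separate upward, and the other panels overlap.

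Vegfa encodes vascular endothelial growth factor A, which in the kidney is made by podocytes and tubule cells and acts on neighbouring capillaries. It was read by 6 probes under 2 transcript accessions. The brightest, A_64_P099886, gave 4.10, 3.98 and 4.12 with corn oil against 4.08, 4.29 and 4.26 with anthraquinone. Anthraquinone replicates 2 and 3 lay above all corn oil animals and replicate 1 lay among them. The difference was 0.14 ± 0.09 (SE, n = 3 per group, 95% interval -0.08 to 0.36, limma adjusted p = 0.453), and 0.02 with normexp and quantile normalization. The probes of this gene did not give 1 direction: 5 lay between 0.14 and 0.24, and A_64_P155983 gave -0.22 ± 0.08 (SE, limma adjusted p = 0.245) with groups that did not overlap. Set against the mean of the other 5 probes within each array, a comparison chosen after these values were seen, A_64_P155983 read -3.14, -2.96 and -3.01 with corn oil against -3.32, -3.51 and -3.51 with anthraquinone. The difference of -0.41 is a description, with no test, since the probe was picked for its direction. Which transcripts each probe reads was not tested.

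Podocyte markers summed to 28.3 to 29.6 times the 75th percentile in corn oil and 26.2 to 28.6 in anthraquinone, with 5 of 5 measured and 0 past the test. Endothelial markers, which cover the cells that respond to this ligand, summed to 58.7 to 75.2 and 61.2 to 72.9, with 7 of 7 matched markers measured and 0 past the test. Both ranges overlap between the groups, and their part in the Vegfa values was not tested.

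Adm encodes adrenomedullin, a vasodilator peptide induced by HIF. Its levels were 2.91, 2.64 and 3.34 with corn oil against 2.95, 2.99 and 3.41 with anthraquinone, so that replicate 3 was the highest of each group and the groups overlapped. The difference was 0.15 ± 0.21 (SE, n = 3 per group, 95% interval -0.36 to 0.66, limma adjusted p = 0.748), and -0.01 without corn oil replicate 2. This was the widest interval among the hypoxia response genes. Calcrl, which encodes a part of the receptor that adrenomedullin binds, read -4.82, -4.70 and -4.61 with corn oil against -5.08, -5.28 and -4.98 with anthraquinone. Its groups did not overlap, with a difference of -0.40 ± 0.11 (SE, limma adjusted p = 0.201). With normexp and quantile normalization it was -0.02 (limma adjusted p = 0.921), and the probe was not tested where all arrays had to be well above background. This dim probe thus passed the filter through only 1 group, and nothing is read from its separation.

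Slc2a1 encodes the glucose transporter GLUT1. Its levels were 1.4999, 1.65 and 1.19 with corn oil against 1.52, 1.33 and 1.35 with anthraquinone, with the anthraquinone values inside the corn oil range. The difference was -0.05 ± 0.14 (SE, n = 3 per group, 95% interval -0.38 to 0.28, limma adjusted p = 0.888), and 0.06 without corn oil replicate 2. Pfkfb3 encodes an enzyme that makes the activator of phosphofructokinase and so speeds glycolysis. Its tested probe read -3.67, -3.44 and -3.25 with corn oil against -3.15, -3.48 and -3.37 with anthraquinone, which overlap. The difference was 0.12 ± 0.14 (SE, limma adjusted p = 0.701), but 0.01 without corn oil replicate 1. Leaving out anthraquinone replicate 1 gave 0.03. The other probes of Pfkfb3 were well above background on 1 and 2 of the 6 arrays and were not tested.

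Pdk1 encodes a kinase that keeps pyruvate out of mitochondria by inhibiting pyruvate dehydrogenase. It read -2.09, -2.12 and -2.30 with corn oil against -2.09, -2.11 and -2.14 with anthraquinone. Apart from the lower corn oil replicate 3 the 6 animals were nearly equal. The difference was 0.06 ± 0.08 (SE, n = 3 per group, 95% interval -0.15 to 0.26, limma adjusted p = 0.772), and -0.01 without corn oil replicate 3.

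Bnip3 encodes a mitochondrial outer membrane protein that recruits the autophagy machinery to damaged mitochondria. Its brightest probe, A_64_P018726, read 5.03, 4.99 and 4.89 with corn oil against 5.27, 5.33 and 5.80 with anthraquinone. Every anthraquinone animal lay above every corn oil animal, and replicate 3 stood well above the other two. The means were 4.97 ± 0.07 and 5.47 ± 0.29 (SD, n = 3 per group), and the difference was 0.49 ± 0.15 (SE, 95% interval 0.12 to 0.87, limma adjusted p = 0.218). The second probe, A_44_P472442, read 3.59, 3.67 and 3.60 with corn oil against 3.93, 3.997 and 4.44 with anthraquinone, the same order of groups with a difference of 0.50 ± 0.15. Without anthraquinone replicate 3 the difference was 0.33 ± 0.09 (SE, limma adjusted p = 0.333). The size also moved with the scaling, to 0.37 after quantile normalization and 0.36 with normexp added. Over the 18 settings the Bnip3 difference lay between 0.33 and 0.59 and was called in 0. Bnip3l, a close relative with the same task, gave 0.03 ± 0.07 (SE, limma adjusted p = 0.881), which became -0.08 after quantile normalization.

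**Figure D2:**
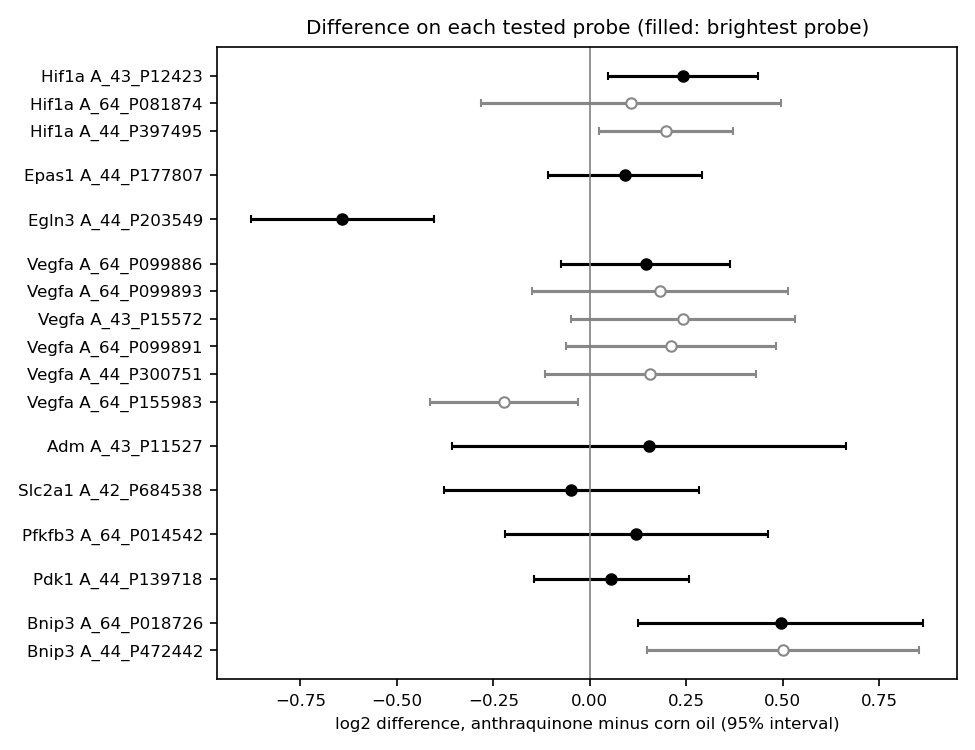
Log2 difference, anthraquinone minus corn oil, with its 95% interval on every tested probe of the hypoxia response genes (filled, the brightest probe of the gene). The intervals of Egln3 (-0.88 to -0.40), both Bnip3 probes, 2 of the 3 Hif1a probes and 1 Vegfa probe do not include 0, and that Vegfa probe lies on the other side of 0 from the other 5.

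The wider HIF pathway was taken from a list of 93 genes, of which 85 had a matched probe and 81 were tested. Of these 1 passed over all entries, and it rose: Hmox1, the haem-degrading enzyme gene, which is a target of HIF and also of the oxidative stress factor Nrf2. Hmox1 read -1.78, -1.30 and -1.40 with corn oil against 0.80, 0.52 and 0.61 with anthraquinone, a difference of 2.14 ± 0.15 (SE, n = 3 per group, limma adjusted p = 0.0311). Hmox1 was no longer past the threshold with any 1 array left out, where limma adjusted p ranged from 0.0609 to 0.154. The slide as a block (limma adjusted p = 0.0929) gives the same difference as leaving out corn oil replicate 1, so it is not a separate check. At an unadjusted p under 0.05, 15 of the 81 genes (18.5%) differed, 11 higher and 4 lower, and the groups of 21 (25.9%) did not overlap. Both shares are close to those of all entries, 17.1 and 25.2%. Both counts include Calcrl, whose dim probe passed the filter through only 1 group. The median difference over the 81 was 0.03, with 45 above 0 and 36 below.

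Among 13 tested genes of HIF subunits and oxygen sensing, 0 passed, with 8 above 0. Arnt, the stable partner, gave 0.11 ± 0.16, and -0.01 without anthraquinone replicate 1. Hif3a, whose products can oppose the other alpha subunits, gave -0.27 ± 0.23 (and -0.51 on a second probe), between -0.45 and -0.07 over the settings tried. Vhl, the recognition subunit of the ubiquitin ligase, gave -0.07 ± 0.08. Hif1an, which encodes the asparagine hydroxylase that silences HIF, gave 0.17 ± 0.09, and Egln2, the family member that is not a typical HIF target, gave -0.04 ± 0.07 (SE throughout). None of these 5 had groups that stood apart on the brightest probe. Of the 13, the groups of 2 others did not overlap, both higher (15.4%, beside 25.2% of all entries). The probes of Hif3a (means -4.40 with corn oil and -4.67 with anthraquinone) and Arnt (-4.57 and -4.46) were dim.

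Glycolysis and lactate genes showed 0 of 24 past the test, with 13 above 0 and 11 below. The groups of 8 (33.3%) did not overlap, 6 higher and 2 lower, beside 25.2% of all entries. At an unadjusted p under 0.05 there were 4 (16.7%), 3 higher and 1 lower, beside 17.1% of all entries. Gapdh, a central enzyme of the pathway, gave 0.32 ± 0.09 (SE, limma adjusted p = 0.211), with 0.27 to 0.41 on its 4 other probes, and Pgk1, the next enzyme, gave 0.27 ± 0.07 (limma adjusted p = 0.205) and 0.17 on a second probe. Hk1, the hexokinase gene active in most tissues, gave -0.30 ± 0.08 (limma adjusted p = 0.195) and -0.35 on a second probe. Ldha, the lactate dehydrogenase subunit gene and a standard HIF target, gave -0.13 ± 0.11 and -0.27 on a second probe. The enzymes of this pathway had values on both sides of 0, and the sizes moved with the scaling. Gapdh was 0.13 after quantile normalization and 0.10 with normexp added, Pgk1 was 0.08 and 0.11, and Ldha was -0.28 and -0.30.

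Among the remaining named targets, Ndrg1, a stress-responsive growth regulator, read 6.79, 6.81 and 6.80 with corn oil against 7.19, 7.43 and 7.46 with anthraquinone. Its groups did not overlap, and the difference was 0.56 ± 0.09 (SE, n = 3 per group, limma adjusted p = 0.140), with 0.61 on a second probe, and 0.36 after quantile normalization. Bhlhe40, a transcriptional repressor that also belongs to the circadian clock, read -1.43, -0.43 and -1.13 with corn oil against -1.54, -1.96 and -1.87 with anthraquinone, also without overlap, with a difference of -0.79 ± 0.27 (SE, limma adjusted p = 0.237). That difference was -0.51 without corn oil replicate 2, the highest of its group, and -1.01 without corn oil replicate 1. Ankrd37, a small ankyrin-repeat gene used as a HIF marker, gave 0.31 ± 0.11 (SE, limma adjusted p = 0.257) without overlap, although anthraquinone replicate 3 at 2.46 nearly met corn oil replicate 3 at 2.43. Cp, the gene of the copper oxidase ceruloplasmin, gave 0.33 ± 0.13 on its brightest probe and 0.06 to 0.21 on 3 others.

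Several textbook hypoxia markers did not separate the groups. Car9, the carbonic anhydrase gene widely used to stain hypoxic tissue, gave -0.26 ± 0.11 (SE, limma adjusted p = 0.293), and -0.11 with normexp and quantile normalization. The Car9 groups barely overlapped, with anthraquinone replicate 3 at -3.189 and corn oil replicate 3 at -3.194, on a dim probe. Ddit4, an inhibitor of growth signalling, read 2.25, 3.37 and 1.58 with corn oil against 2.47, 2.62 and 1.70 with anthraquinone, so its spread between animals was far wider than its difference of -0.14 ± 0.48, which became 0.35 without corn oil replicate 2. Angptl4, a lipase inhibitor gene, gave 0.20 ± 0.31, and -0.02 without corn oil replicate 1. Epo, the erythropoietin gene, was not well above background on any array with either of its 2 probes, so no difference in it was detectable here. Slc2a3 and Stc2 were also too dim to test.

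Summed levels of red cell and distal convoluted tubule markers did not overlap between the same groups, while those of all other marker lists did. The red cell markers Hbb and Alas2 summed to 186 to 228 times the 75th percentile in corn oil and 282 to 375 times in anthraquinone, with 2 of 2 measured markers higher and 0 past the test. The distal convoluted tubule markers Slc12a3 and Calb1 summed to 23.7 to 34.5 and 18.7 to 21.6 times, with 2 of 2 measured markers lower and 0 past the test, and Pvalb was not well above background on all arrays of a group. A sum follows its brightest markers and can hide single ones. Collecting duct sums overlapped, but Scnn1b (-0.72, limma adjusted p = 0.108) and Scnn1g (-0.46) lay lower without overlap. In the same list Aqp3 lay higher without overlap (0.46), and Aqp2 overlapped (-0.34). The part of any of these markers in the values of Egln3, Bnip3 and Hif1a was not tested.

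**Figure D3:**
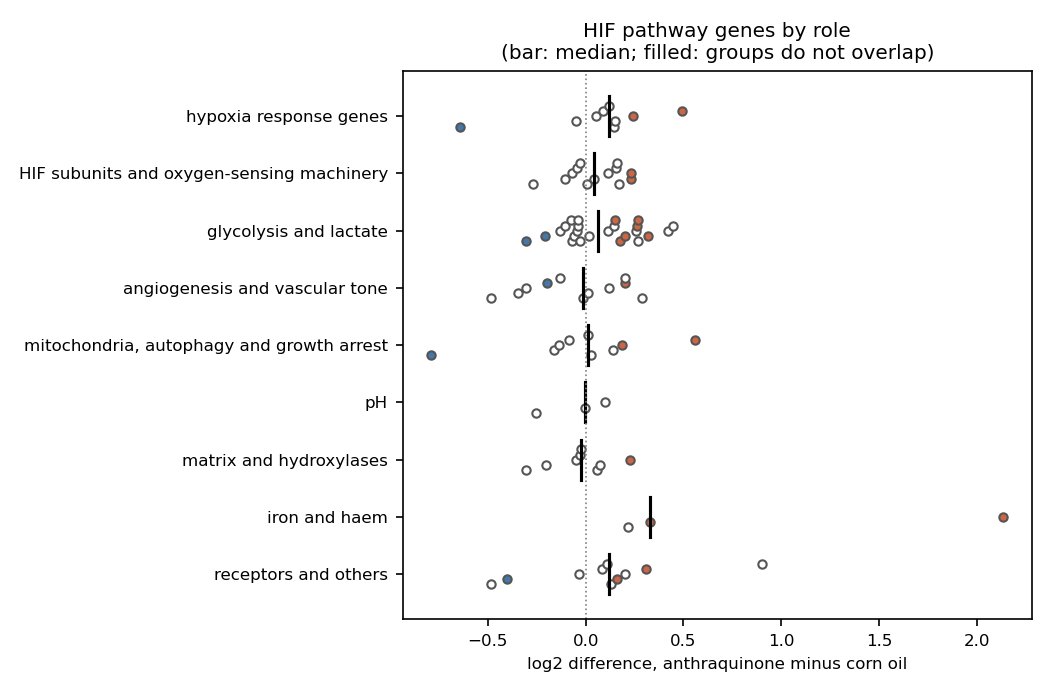
Log2 difference, anthraquinone minus corn oil, of each tested gene of the HIF pathway by role, with the hypoxia response genes at the top, the median of each role as a bar, and groups that do not overlap filled (orange higher, blue lower). The medians of the roles lie between -0.03 and 0.33, the highest for iron and haem, whose 3 genes are all above 0, and Hmox1 at 2.14 stands apart from all other points.

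**Figure D4:**
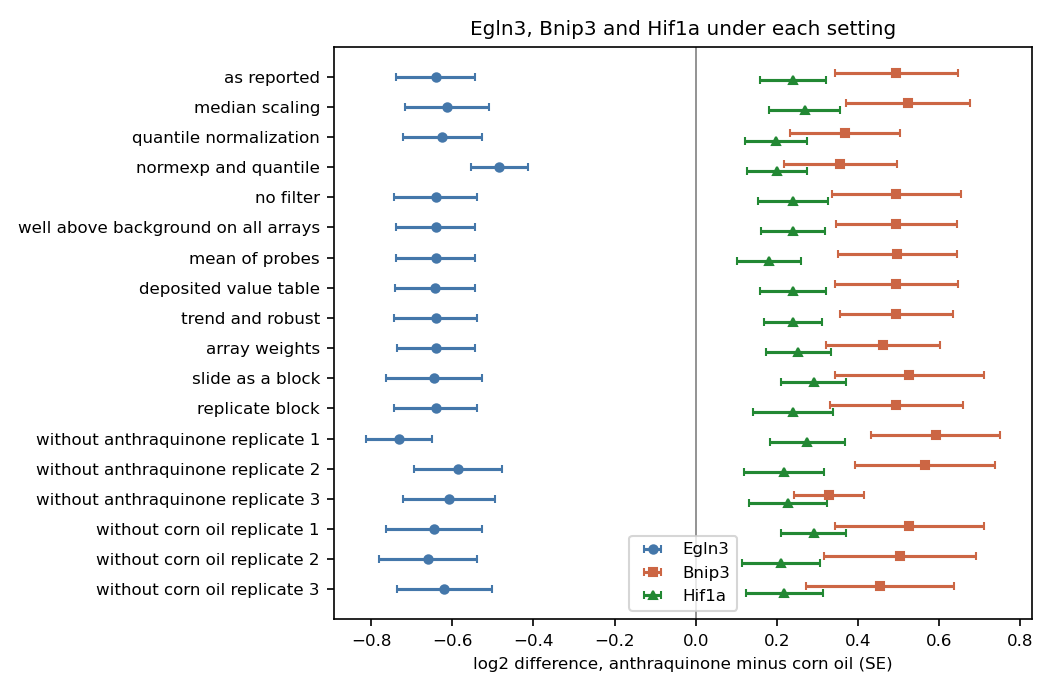
Log2 difference of Egln3, Bnip3 and Hif1a, anthraquinone minus corn oil, with its SE, as reported and under each of 17 other settings. Egln3 stays between -0.73 and -0.48, Bnip3 between 0.33 and 0.59 and Hif1a between 0.18 and 0.29.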

How the data were processed

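The authors deposited 1 scanner file per array, holding each spot's intensity on a linear scale from Agilent Feature Extraction 10.7.1.1, corrected for background and spatial trend, per the file headers. The deposited value table holds the same intensity divided by the 75th percentile of each array, as checked here, since no header states it. Of 62976 spots, 61657 were non-control probes. Log2 processed intensity minus the array's 75th percentile was used, without 2 to 13 outlier spots per array. Probes were named by accession through the RefSeq table of GRCr8, which gave 27460 of the 61657 a symbol. The 41310 probes that the software called well above background on every array of a group were tested. The brightest probe stood for each gene. The fit used limma 3.58.1 (lmFit, eBayes; R 4.3.3) with group as the term and Benjamini-Hochberg adjustment over 32663 entries at 0.05. The procedure was tested on simulated data. The genes and lists were chosen with earlier results of these data known. From the wider list the text names genes past the threshold, up to 4 per direction with the largest change at an unadjusted p under 0.05 without overlap, and a fixed set. Values of single probes come from the same fit over all 41310 probes.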

Additional observations from a re-analysis of the deposited data

How the results depend on the processing

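Among the 9 hypoxia response genes 0 were called in 16 of 17 alternatives, and 1 (Egln3) without the filter on dim probes. That setting called 6611 entries, of which 5805 stood out from background on 0 arrays, and 2 genes of the wider list (Hmox1 and Ndrg1, adjusted p = 0.0199 for Ndrg1). In place of 9 entries, normexp with quantile normalization called 17, the trended robust variance 81, the slide as a block 2 and the replicate block 1. The wider list had 0 calls with either block. The slide block gives the same differences as leaving out corn oil replicate 1, the only array on its slide, and is not a separate check. Normexp used median spot and background signals, since mean spot signals are not among the columns read. Same-numbered animals did not deviate together over all entries (correlations 0.03, -0.06 and -0.01), so no pairing was used. A correlation over all entries cannot show whether single genes are paired. With the replicate block the SE of Adm fell from 0.21 to 0.10, and that of Bnip3 rose from 0.15 to 0.16. Leaving out 1 array gave 1 to 25 entries and 0 calls in either list, with a median of 0.067 to 0.17 for the hypoxia response genes and 0.029 to 0.061 for the wider list. With normexp these medians were 0.065 and -0.0036. Some signs turned when 1 array was left out. Over those 6 fits Slc2a1 ranged from -0.18 to 0.056, Adm from -0.0082 to 0.34, Pdk1 from -0.011 to 0.096, Arnt from -0.0058 to 0.27, Angptl4 from -0.015 to 0.50, Bnip3l from -0.0039 to 0.049 and Ddit4 from -0.55 to 0.35. Angptl4 was -0.015 with the slide as a block, Bnip3l -0.083 after quantile normalization and -0.078 after normexp, and Vegfa -0.22 on probe A_64_P155983. The causes were not tested. Dim probes limit Epo, Slc2a3, Stc2, Calcrl and 2 Pfkfb3 probes.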
